A study of Mus musculus with 2 samples.

Results

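The genes of the voltage-gated calcium and sodium channels were followed through single-nucleus RNA-seq of whole mouse retina at postnatal day 21. The members are set by a rule on gene names. They are the pore genes of calcium channels (Cacna1), their alpha2delta (Cacna2d), beta (Cacnb) and gamma (Cacng) subunit genes, and the pore and beta subunit genes of sodium channels (Scn). This gave 35 of the 32227 genes in the deposited tables, with 5 genes of these families left out by name. All 35 had at least 1 unique molecular identifier (UMI, 1 captured transcript) in each library, 29 had 100 UMIs or more over both libraries and are described by cell class, and 6 had fewer.

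The series holds 1 library per genotype, both given the strain C57 BL/6J. The Cre- library came from control animals without the Cre transgene, for which the label gives the genotype WT. The Tet tcKO library came from animals with loxP-flanked Tet1, Tet2 and Tet3, the genes of the enzymes that oxidise methylated cytosine. Their deletion was driven by the Chx10::Cre-GFP transgene, which acts in retinal progenitors and is mosaic. Cells outside that lineage and cells it missed keep the genes. The study bred Cre-positive animals with each other to reduce this mosaicism. In bulk samples of retina it reported fewer reads spliced into the deleted exons and less hydroxymethylcytosine. The study's methods give 2 dissociation pools of several animals per genotype, which the cell tables do not separate, so each genotype is 1 sample. No test between genotypes was possible. Every interval is at 95% and covers counting error only, not the variation between animals or preparations.

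Voltage-gated calcium channels open when a membrane depolarises and let calcium in, which triggers transmitter release, shapes firing and reaches the nucleus as a signal. A channel is built around a pore-forming subunit, which sets the current type, and alpha2delta and beta subunits that carry the pore to the membrane and tune it. Voltage-gated sodium channels start and propagate action potentials. In the retina, photoreceptors, bipolar and horizontal cells signal mainly with graded potentials, many amacrine cells fire spikes, and retinal ganglion cells (RGCs) send spikes along the optic nerve. Müller glia are the radial glia of the retina.

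The Cre- library held 7357 nuclei with a median of 1107 UMIs and the Tet tcKO library 6766 with a median of 1836.5. Members took 0.443% and 0.474% of all UMIs. The 13 mitochondrial genes took 5.47% and 1.76%, and 1 nucleus barcode occurred in both libraries. The annotated classes differed in size. Rod-annotated nuclei numbered 5214 in the Cre- and 6 in the Tet tcKO library, and cone-annotated nuclei 265 and 3225. Amacrine nuclei numbered 403 and 1043, RGCs 567 and 704, bipolar nuclei 674 and 1649, horizontal cells 90 and 37, and Müller glia 144 and 102. Rods and cones are pooled below as photoreceptors. Amacrine, horizontal, RGC and Müller clusters passed a check of leading genes against marker lists. The check asks only that no other list holds more of the leading genes than the cluster's own. Müller clusters 14, 30 and 37 and amacrine clusters 23 and 27 passed with 0 markers of their own class, so a pass does not establish the class. In the pooled photoreceptors 3 clusters failed the check and values without them are given. Of the 9 bipolar clusters, 4 failed it with genes ranked by UMIs and 1 with each gene counted once per nucleus, so bipolar levels are shown but not compared between genotypes. Tet1, Tet2 and Tet3 stood at 50.2, 105 and 180 UMIs per 1000000 UMIs (CPM) in the Cre- and 61.2, 139 and 174 CPM in the Tet tcKO library, but these counts cover whole genes at their 3′ end and not the deleted part, so they check nothing about the deletion.

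Levels are summed UMIs of a gene over all UMIs of the same nuclei, in CPM. The capture of 3′ ends in nuclei depends on gene length and structure, so each gene is compared only with itself across classes and libraries. Summed over the 35 members, amacrine nuclei had 6869 CPM (6654 to 7090.3) in the Cre- and 6939.9 CPM (6834 to 7047) in the Tet tcKO library, and RGCs 6671 CPM (6528 to 6817) and 6719 CPM (6609 to 6829.8). Horizontal cells had 5697 and 6791 CPM. Photoreceptors had 3746 CPM (3703 to 3790.1) and 3598 CPM (3555 to 3642), and Müller glia 3469.9 and 2667 CPM. In both libraries the channel families together took a larger share of UMIs in amacrine nuclei, RGCs and horizontal cells than in photoreceptors and Müller glia. For amacrine nuclei and RGCs the intervals of the libraries overlapped. They did not overlap for photoreceptors, for horizontal cells (5332 to 6082 and 6315 to 7294) or for Müller glia (3229 to 3724 and 2411 to 2942).

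**Figure D1:**
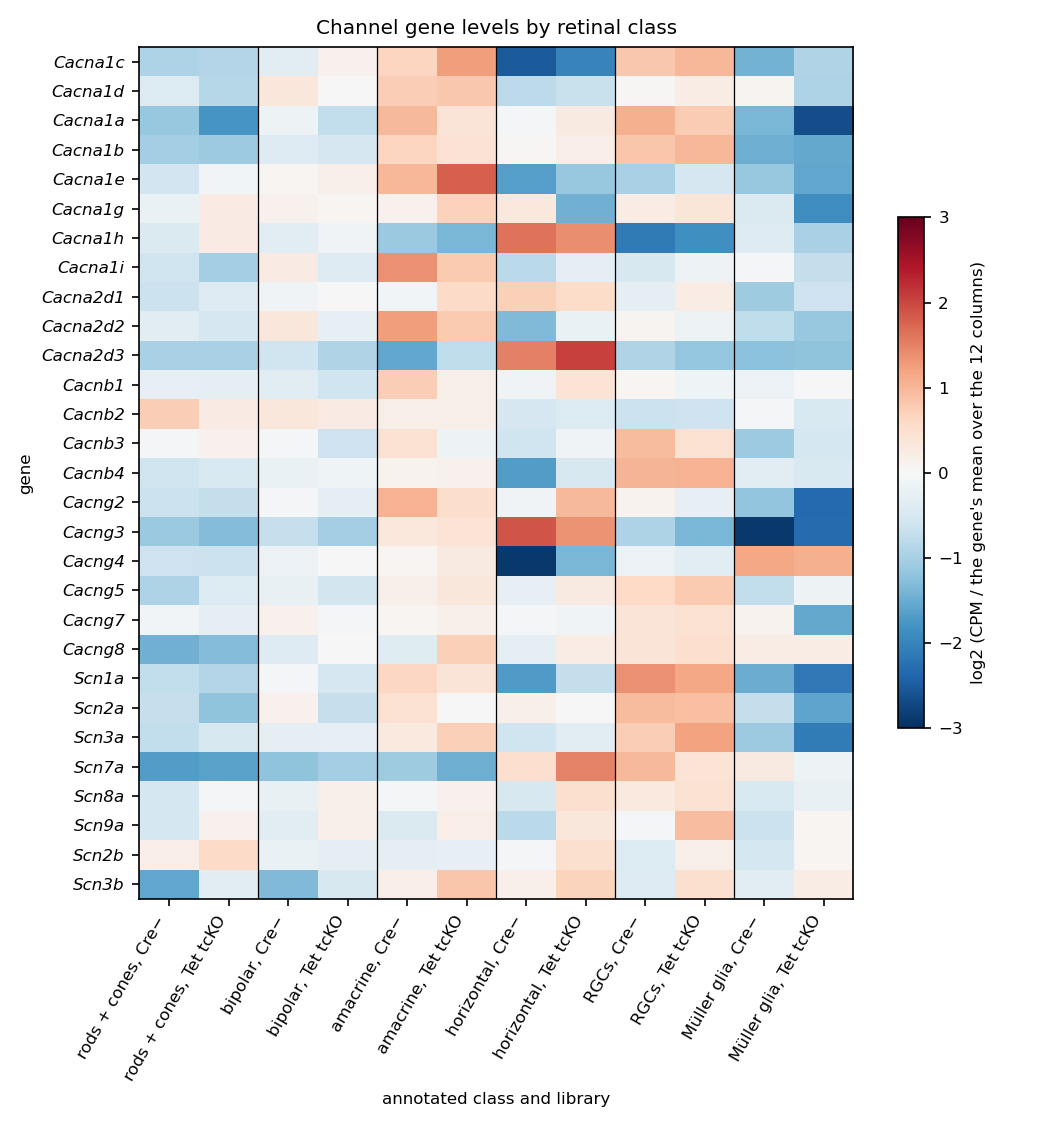
Level of the 29 members with 100 UMIs or more (rows) in 6 annotated classes of the Cre- and Tet tcKO libraries (columns), as log2 of CPM over the gene's own mean of the 12 columns, with levels under the floor of 3 counts set to that floor. The 2 columns of a class resemble each other for most genes. Warm cells include those of Cacna2d3, Cacna1h and Cacng3 in horizontal cells, Cacng4 in Müller glia, Scn1a in RGCs and Cacna1e in Tet tcKO amacrine nuclei.

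The highest class of a member was mostly shared by the libraries. The same calls were not made over all genes, so these counts do not set the members apart from other genes. The highest class was the same in both for 22 of the 29 members. For 11 members the highest class stood clear of the second by its interval in both libraries, and it was the same class in 11 of 11. In the Cre- library 14 members were highest in RGCs, 7 in amacrine nuclei, 5 in horizontal cells, 2 in photoreceptors and 1 in Müller glia. In the Tet tcKO library the numbers were 10, 10, 6, 2 and 1. No member was highest in bipolar nuclei.

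Among the L-type pores, Cacna1d, a channel that opens at modest depolarisation and is known from sensory cells and pacemaking neurons, was highest in amacrine nuclei in both libraries, at 893 CPM (817 to 975) in the Cre- library and 938 CPM (899 to 978) in Tet tcKO. Its lowest levels were in horizontal cells of the Cre- library, at 310 CPM, and in Müller glia of the Tet tcKO library, at 281 CPM. Cacna1c, the other L-type pore and the main one of heart and many neurons, stood at 451 CPM (397 to 510) in amacrine nuclei and 504 CPM (465 to 545) in RGCs of the Cre- library, whose intervals overlapped. In the Tet tcKO library it stood at 692 CPM (659 to 727) in amacrine nuclei and 579 CPM (547 to 612) in RGCs, so the first place differed. Horizontal cells had the lowest Cacna1c in both, at 50.5 and 72.1 CPM.

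The P/Q, N and R pores serve transmitter release at central synapses. Cacna1a, the P/Q pore, stood at 1323 CPM (1260 to 1389) in RGCs and 1232 CPM (1141 to 1327) in amacrine nuclei of the Cre- library, which overlapped. In Tet tcKO it stood at 1070 CPM (1026 to 1115) in RGCs, clear of 828 CPM (792 to 866) in amacrine nuclei. Photoreceptors had 288 and 184 CPM. Cacna1b, the N-type pore, was likewise highest in RGCs, at 310 and 345 CPM, and lowest in Müller glia, at 63.0 and 60.3 CPM. In the Cre- library its RGC interval overlapped that of amacrine nuclei, at 270 CPM. Cacna1e, the R-type pore, was an amacrine gene in both libraries, at 118 CPM (91.4 to 150) in the Cre- library and 204 CPM (187 to 224) in Tet tcKO, with 30.1 and 41.7 CPM in RGCs.

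The T-type pores pass small currents near rest and are known for rebound firing. They did not share a class. Cacna1h was highest in horizontal cells, at 771 CPM (640 to 920) in the Cre- library and 658 CPM (515 to 827) in Tet tcKO, against 56.9 and 69.4 CPM in RGCs. Cacna1i was highest in amacrine nuclei, at 85.9 CPM (63.4 to 114) and 57.2 CPM (47.9 to 67.8). Cacna1g varied least across classes in the Cre- library, from 90.0 CPM in Müller glia to 152 CPM in horizontal cells. In the Tet tcKO library it ran from 33.5 CPM in Müller glia to 196 CPM in amacrine nuclei.

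The alpha2delta genes Cacna2d3 and Cacna2d2 led in different classes. Cacna2d3 stood at 1314 CPM (1141 to 1505) in horizontal cells of the Cre- library and 1918 CPM (1669 to 2194) in those of the Tet tcKO library, 4.27 and 7.04 times the next class. With each nucleus thinned to 500 UMIs, 43.3% of the 90 Cre- horizontal nuclei (32.9% to 54.2%) and 51.4% of the 37 Tet tcKO ones (34.4% to 68.1%) held a Cacna2d3 UMI, against 9.03% and 7.84% in Müller glia. Without thinning the shares were 73.3% and 97.3% in horizontal cells at median depths of 1502 and 2492 UMIs, and 23.6% and 22.5% in Müller glia at 1093 and 1373 UMIs. Cacna2d2, whose product like that of Cacna2d1 binds gabapentin, was highest in amacrine nuclei, at 492 CPM (436 to 554) and 354 CPM (331 to 379), 1.89 and 1.90 times the next class. Cacna2d1 was first in horizontal cells of the Cre- library, at 562 CPM (451 to 692). In the Tet tcKO library amacrine nuclei, at 506 CPM, and horizontal cells, at 504 CPM, could not be told apart.

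The beta subunits are cytoplasmic and needed for pores to reach the membrane. Cacnb2, known as the beta subunit of photoreceptor synapses, was highest in photoreceptors, at 753 CPM (734 to 773) in the Cre- library and 534 CPM (518 to 551) in Tet tcKO. In the Tet tcKO library its interval was not clear of that of the bipolar-annotated nuclei. Those nuclei held cone markers at 6295 CPM and bipolar markers at 3665 CPM, and the part of this in the Cacnb2 level was not tested. Cacnb4 was highest in RGCs, at 406 CPM (371 to 443) and 414 CPM (387 to 442), 1.87 and 1.88 times amacrine nuclei. Cacnb3 was highest in RGCs at 55.3 and 39.4 CPM, and Cacnb1 in amacrine nuclei at 34.0 and 23.1 CPM, neither clear of the second class.

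The Cacng genes carry the name of a calcium channel subunit, but Cacng2, Cacng3, Cacng4, Cacng5, Cacng7 and Cacng8 are known mainly as auxiliary subunits of AMPA glutamate receptors. Cacng4 was the only one of the 29 members highest in Müller glia, at 315 CPM (246 to 398) in the Cre- library and 295 CPM (214 to 396) in Tet tcKO. That was 2.15 and 1.74 times amacrine nuclei, and horizontal cells had the lowest Cacng4 among classes, at 18.9 and 54.0 CPM. In Müller glia the Müller markers stood at 3011 and 3270 CPM, rod markers at 6377 and 2104 CPM and cone markers at 1683 and 4068 CPM. In horizontal cells the horizontal markers stood at 7605 and 7233 CPM, rod markers at 2805 and 1324 CPM and cone markers at 827 and 2432 CPM. The part of these counts in the member levels was not tested. Cacng3 was highest in horizontal cells, at 366 CPM (278 to 474) and 252 CPM (168 to 364). Cacng2 stood at 209 CPM (173 to 251) in amacrine nuclei of the Cre- library, ahead of 110 CPM in RGCs, and in the Tet tcKO library at 198 CPM (124 to 300) in horizontal cells and 147 CPM (132 to 164) in amacrine nuclei. Cacng5, Cacng7 and Cacng8 were low or even, and their first 2 classes overlapped in both libraries.

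**Figure D2:**
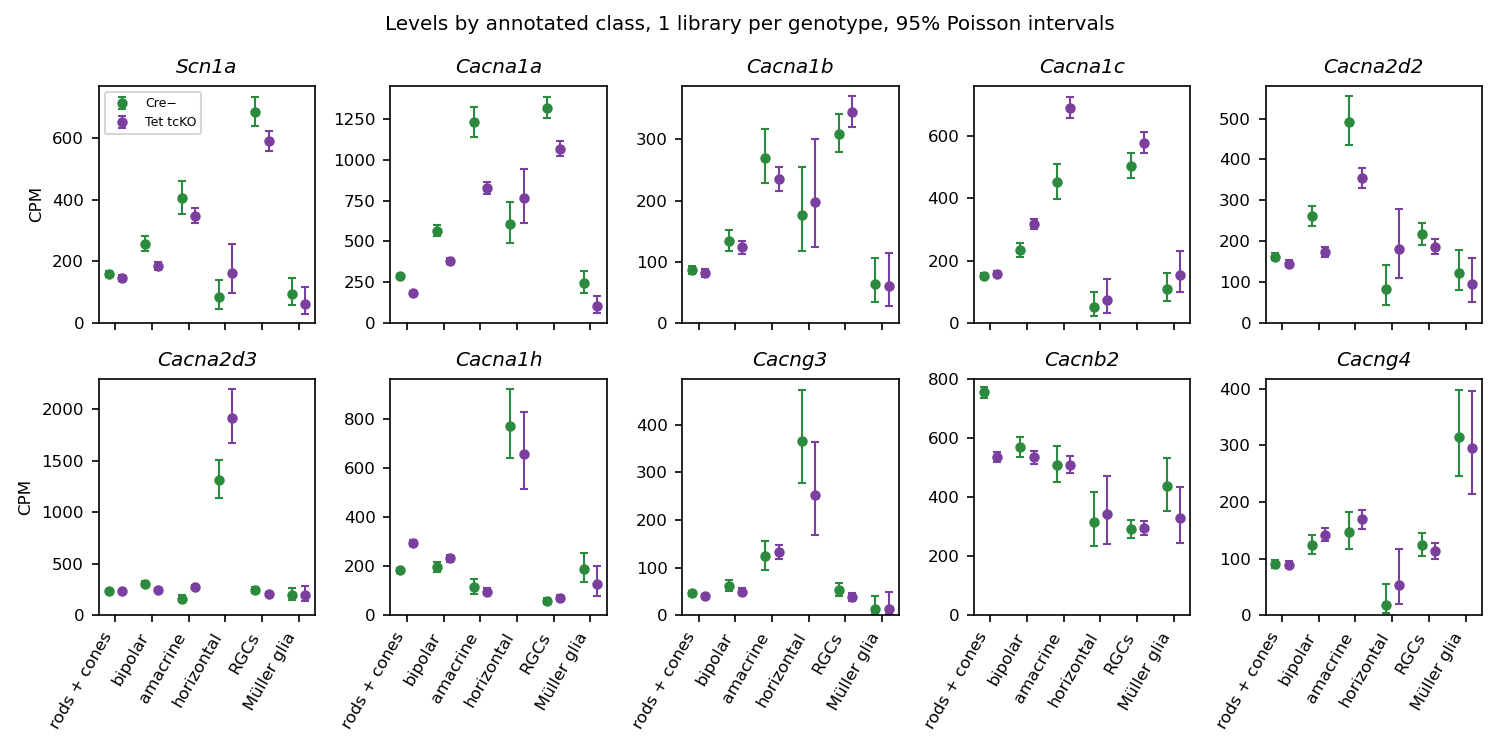
Levels in CPM (vertical axis, starting at 0 in each panel) of 10 members in 6 annotated classes of the Cre- (green) and Tet tcKO (purple) libraries, with bars for 95% Poisson intervals of the counts. Cacna2d3, Cacna1h and Cacng3 peak in horizontal cells, Cacng4 in Müller glia, Cacna2d2 in amacrine nuclei and Scn1a in RGCs in both libraries, and Cacna1c has its first place in RGCs in Cre- and in amacrine nuclei in Tet tcKO.

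Of the 6 sodium channel pores with 100 UMIs or more, Scn1a and Scn2a were highest in RGCs and clear of the next class in both libraries. Scn1a, a main pore of the axon initial segment of many neurons, stood at 688 CPM (642 to 736) in RGCs of the Cre- library and 591 CPM (559 to 624) in Tet tcKO, 1.70 times amacrine nuclei in both. Thinned to 500 UMIs, 29.8% of Cre- and 25.4% of Tet tcKO RGCs held a Scn1a UMI, against 3.47% and 1.96% of Müller glia, and without thinning 63.3% and 72.6% against 11.1% and 8.82%. Scn2a, a pore of unmyelinated axons, stood at 387 CPM (353 to 423) and 375 CPM (349 to 402) in RGCs, clear of the next class in both libraries. Scn3a, best known from embryonic neurons, was highest in RGCs at 193 CPM (169 to 219) and 267 CPM (245 to 290), clear of amacrine nuclei in the Tet tcKO library. Scn8a, the pore of mature nodes of Ranvier, differed less between classes, from 201 CPM in photoreceptors to 354 CPM in RGCs of the Cre- library and from 248 CPM in Müller glia to 405 CPM in horizontal cells of the Tet tcKO library. Scn9a, known from pain-sensing neurons, was highest in RGCs at 76.4 CPM (61.7 to 93.5) and 149 CPM (133 to 166), not clear of the next class in either library.

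Scn7a, an atypical pore known as a sodium sensor, was at 43.9 CPM in RGCs and 31.6 CPM in horizontal cells of the Cre- library, with 54 and 5 UMIs. In the Tet tcKO library horizontal cells came first, at 63.0 CPM (25.3 to 130) from 7 UMIs, and RGCs had 29.5 CPM (22.7 to 37.8), with overlapping intervals.

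The sodium channel beta subunits are small adhesion proteins that modulate gating. Scn2b was highest in photoreceptors, at 22.2 CPM (18.9 to 25.8) and 28.9 CPM (25.1 to 33.0), though not clear of the next class in either library. Scn3b was highest in amacrine nuclei, at 19.7 CPM (9.83 to 35.2) and 30.7 CPM (24.1 to 38.7), not clear of RGCs in either library. Scn4b, which supports resurgent sodium current, had 30 and 16 UMIs in all nuclei, of which 18 and 5 were in RGCs.

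The other members under 100 UMIs were the pores Scn4a, of skeletal muscle, and Scn10a and Scn11a, of sensory ganglia, and the subunits Cacng1 and Cacng6. They ranged from 3 to 60 UMIs in the Cre- library and from 5 to 24 in the Tet tcKO library. Scn4a had 60 and 22 UMIs. The skeletal muscle list had 15.8 and 19.3 CPM over 6 genes in photoreceptors, with 1 gene at 0 in each library, and its part in the Scn4a counts was not tested.

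The libraries were then compared gene by gene as the log2 ratio of CPM, Tet tcKO over Cre-, among members that reached 10 CPM in either library, and a difference of 2-fold or more was counted. Over all nuclei 1 of 29 members was that far apart, while 5.66% of the 11158 genes at that level were, with 3.18% of genes higher in Tet tcKO and 2.48% lower. This member was Scn3b, at 7.47 CPM from 86 UMIs in Cre- and 16.9 CPM from 280 UMIs in Tet tcKO, giving a log2 ratio of 1.18 (0.82 to 1.54). The median member ratio was 0.17, against 0.15 for all genes, and 82.8% of members and 73.3% of all genes lay within 0.5 of 0. The next highest were Cacna1e, at 45.1 and 76.8 CPM with a log2 ratio of 0.77 (0.62 to 0.92), and Scn9a, at 57.4 and 94.5 CPM with 0.72 (0.59 to 0.85). The lowest were Cacnb2 at -0.39 (-0.44 to -0.35), Scn2a at -0.23 (-0.31 to -0.14) and Cacna1a at -0.14 (-0.19 to -0.09). Class shares differ between the libraries, and with each class given its Cre- share of UMIs in both, the ratio over all nuclei was 0.44 for Cacna1e and -0.50 for Cacna1a. Fewer cells of a type and less RNA per cell cannot be told apart in these sums.

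The promoter windows of the 3 members that stood 2-fold or more apart in any population are shown, since TET enzymes act on methylated cytosine, which in mammals lies mostly in CG dinucleotides. Methylation was not measured here. Each window is the 250 bases before the start of the gene's canonical transcript in GENCODE vM39 on GRCm39, written 5′ to 3′ on the gene's strand, with every CG in capitals.
Scn3b, chr9:40180241-40180490, plus strand: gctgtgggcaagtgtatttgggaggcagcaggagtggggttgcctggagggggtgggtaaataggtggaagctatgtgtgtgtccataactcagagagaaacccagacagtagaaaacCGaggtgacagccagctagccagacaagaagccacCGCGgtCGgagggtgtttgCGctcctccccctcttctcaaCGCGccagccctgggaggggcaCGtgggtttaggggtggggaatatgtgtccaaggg
Cacng8, chr7:3438949-3439198, plus strand: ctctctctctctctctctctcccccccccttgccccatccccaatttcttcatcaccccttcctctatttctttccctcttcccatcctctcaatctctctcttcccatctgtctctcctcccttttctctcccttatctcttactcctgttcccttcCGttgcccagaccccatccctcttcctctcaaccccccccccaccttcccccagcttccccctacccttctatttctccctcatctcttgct
Scn4b, chr9:45049345-45049594, plus strand: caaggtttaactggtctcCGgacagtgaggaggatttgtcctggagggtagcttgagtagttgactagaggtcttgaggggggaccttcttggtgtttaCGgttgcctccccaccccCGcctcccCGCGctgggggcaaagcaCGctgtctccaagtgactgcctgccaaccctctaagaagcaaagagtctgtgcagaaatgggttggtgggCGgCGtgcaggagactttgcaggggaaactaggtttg
The windows held 8, 1 and 8 CG dinucleotides in that order. Over the 35 members the count ran from 1 to 56 with a median of 8, and over 21770 protein-coding genes from 0 to 56 with a median of 8. The letters TAATCC, a photoreceptor homeodomain motif, or GGATTA on the other strand, were in the windows of 2 members, Cacna1e and Scn7a, which is 5.71% of members against 7.0% of all windows. Scn3b spans chr9:40179378-40203052, and Scn2b and Scn4b lie side by side at chr9:45029080-45041368 and chr9:45049595-45065452. The Scn3b window thus lies inside the span of its gene, and 24 of its bases and 27 of those of the Cacng8 window are exonic. Windows of some other members, among them Cacna1a and Cacnb2, also lie inside their genes. Which promoter is used in retina was not tested. Cacng8, at chr7:3439199-3464781, overlaps Mir935 on its own strand. On the opposite strand Cacng8 overlaps Gm44257 and Gm44151, Scn3b overlaps Gm47266 and Scn4b overlaps Gm39327. The sources used here do not give the strand used in counting, so reads of overlapping genes cannot be assigned with certainty.

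In pooled photoreceptors, 5479 Cre- nuclei, mostly annotated as rods, were set against 3231 Tet tcKO nuclei, mostly annotated as cones, so genotype and annotated class cannot be told apart. The rod list of 13 genes stood at 11685 CPM in the Cre- library and 6391 CPM in Tet tcKO and the cone list of 12 genes at 1817 and 6507 CPM, with no gene of either at 0. Cre- nuclei annotated as cones held the rod list at 13867 CPM and the cone list at 2084 CPM. Those annotated as rods held them at 11341 and 1775 CPM, so the lists do not separate the 2 annotations there. In the 6 rod-annotated Tet tcKO nuclei the 4 blood genes stood at 155108 CPM. Of 27 members, 1 was 2-fold or more apart, while 9.25% of 11377 genes were, with 6.67% higher in Tet tcKO and 2.58% lower. Without the failing clusters these shares were 8.97%, 6.35% and 2.61%. The member was again Scn3b, at 5.81 CPM from 44 UMIs and 13.8 CPM from 102 UMIs, giving a log2 ratio of 1.25 (0.72 to 1.79), or 1.33 without the failing clusters. The member median was -0.0033 and that of all genes 0.23. Scaling with TMM factors moved every photoreceptor ratio by -0.19 and every ratio over all nuclei by -0.10 on the log2 scale, so that in photoreceptors the medians became -0.19 and 0.04. Directions given for photoreceptors are on the unshifted scale, and none of the genes named with an interval there changed direction under TMM.

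The calcium pores of photoreceptors split. Cacna1h stood at 183 CPM (173 to 193) in the Cre- library and 293 CPM (281 to 306) in Tet tcKO, giving a log2 ratio of 0.68 (0.58 to 0.78). Cacna1g was also higher in Tet tcKO, at 107 and 146 CPM with a log2 ratio of 0.45 (0.31 to 0.58), and Cacna1e at 39.5 and 55.7 CPM with 0.50 (0.28 to 0.72). Cacna1a was lower, at 288 and 184 CPM with a log2 ratio of -0.64 (-0.74 to -0.54), and so was Cacna1d, at 399 and 293 CPM with -0.45 (-0.53 to -0.37). Cacnb2, which photoreceptors held at the highest level among classes, was at 753 and 534 CPM, giving a log2 ratio of -0.50 (-0.55 to -0.44). Without the failing clusters these log2 ratios were 0.65 for Cacna1h, -0.62 for Cacna1a, -0.45 for Cacna1d and -0.52 for Cacnb2.

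Sodium pores of photoreceptors also went both ways. Scn9a stood at 53.7 and 85.6 CPM, giving a log2 ratio of 0.67 (0.49 to 0.85), and Scn8a at 201 and 285 CPM, with 0.50 (0.41 to 0.60). Scn2a stood at 123 and 85.8 CPM, with -0.52 (-0.67 to -0.37). The intervals of 11 photoreceptor ratios lay above 0, those of 7 below, and those of 9 held 0. Over all genes 49.2% lay above 0 and 18.6% below. With TMM factors 6 member intervals lay above 0 and 14 below, against 32.2% and 29.1% of all genes, so the balance of directions depended on the scaling.

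**Figure D3:**
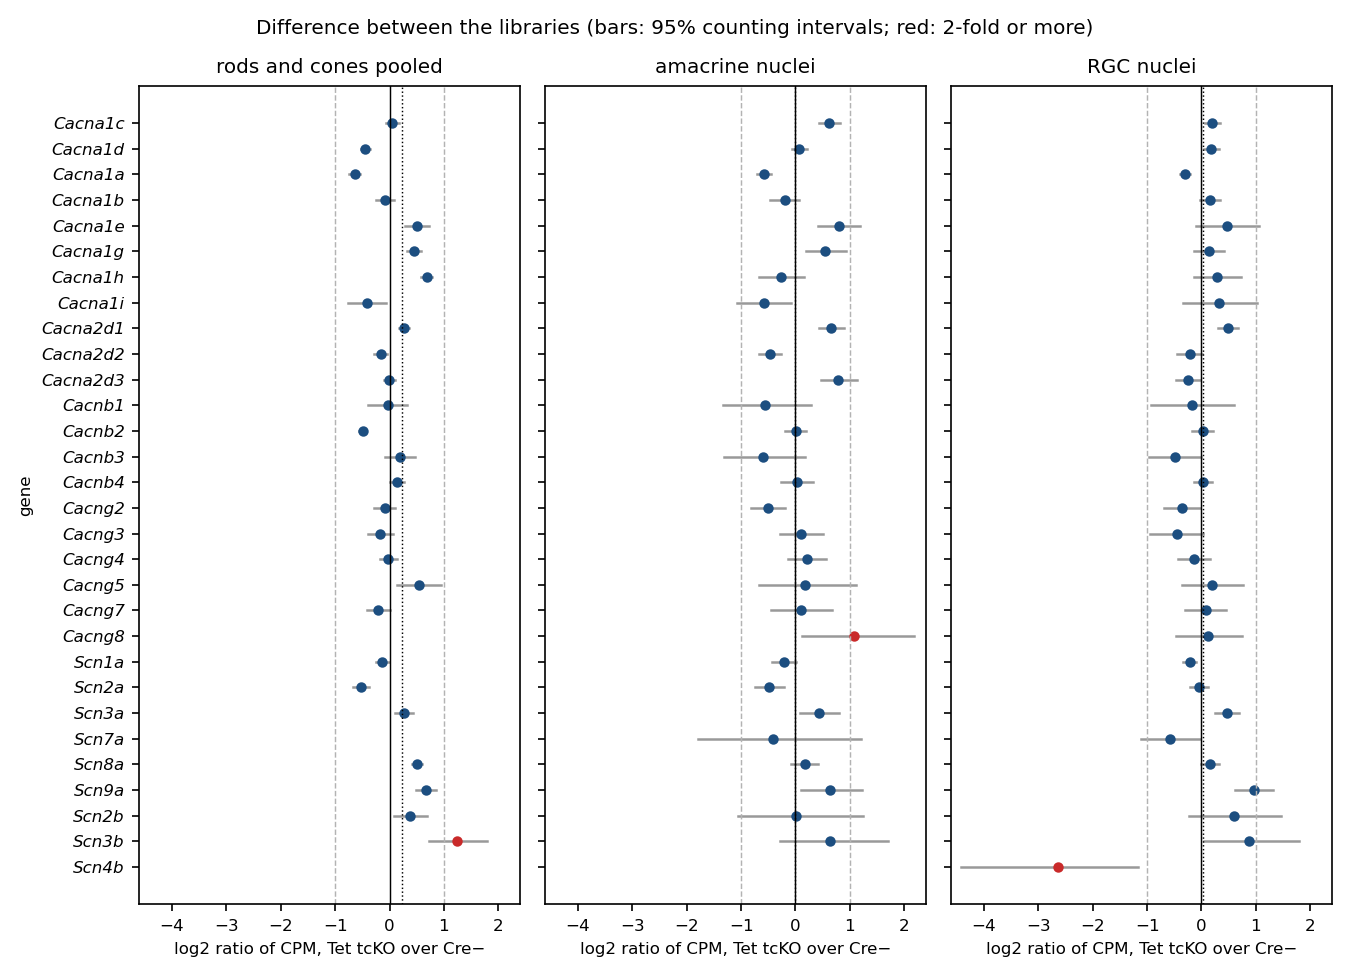
Log2 ratio of CPM, Tet tcKO over Cre- (horizontal axis), of members that reached 10 CPM in either library (rows) in pooled photoreceptors, amacrine nuclei and RGCs, with bars for 95% counting intervals, dashed lines at 2-fold and a dotted line at the median of all genes. Most points lie between the dashed lines, and the 3 members beyond them are Scn3b in photoreceptors at 1.25, Cacng8 in amacrine nuclei at 1.07 and Scn4b in RGCs at -2.64.

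In amacrine nuclei 1 of 29 members was 2-fold or more apart, while 12.9% of 10831 genes were, with 6.44% in each direction. Cacng8 stood at 17.9 CPM from 10 UMIs and 37.6 CPM from 88 UMIs, giving a log2 ratio of 1.07 (0.12 to 2.18), or 0.97 in nuclei with 1000 UMIs or more, which is under 2-fold. The member median was 0.07 against -0.01 for all genes, and 55.2% of members against 59.3% of all genes lay within 0.5 of 0.

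Calcium channel genes with higher levels in Tet tcKO amacrine nuclei were Cacna1e, at 118 and 204 CPM with a log2 ratio of 0.79 (0.42 to 1.19), Cacna2d3, at 158 and 272 CPM with 0.79 (0.47 to 1.13), Cacna2d1, at 322 and 506 CPM with 0.65 (0.42 to 0.89), and Cacna1c, at 451 and 692 CPM with 0.62 (0.42 to 0.81). Those with lower levels included Cacna1a, at 1232 and 828 CPM with -0.57 (-0.70 to -0.45), Cacna2d2, at 492 and 354 CPM with -0.47 (-0.67 to -0.27), and Cacna1i, at 85.9 and 57.2 CPM with -0.59 (-1.07 to -0.08). Cacnb3, at 39.4 and 26.0 CPM, had an interval that held 0. Rod markers stood at 2954 CPM in the Cre- library and 1337 CPM in Tet tcKO amacrine nuclei and cone markers at 845 and 2039 CPM. No rod marker was at 0, 2 cone markers were at 0 in Cre- and none in Tet tcKO, and the part of these counts in the member ratios was not tested.

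Amacrine nuclei of the libraries sat in different clusters. Cluster 27 held 256 nuclei of the Cre- and 21 of the Tet tcKO library, while cluster 12 held 14 and 357. Clusters 13, 23 and 24 held 72 and 122, 26 and 222, and 35 and 321. In the 4 clusters with 20 nuclei or more in each library, weighted by their Cre- shares, the log2 ratio was 1.00 for Cacng8 and 0.59 for Cacna2d1. It was 0.15 for Cacna1e, 0.30 for Cacna2d3, 0.05 for Cacna1c and -0.13 for Cacna1a, and it was 0.22 for Cacna2d2, the opposite direction. These weighted ratios have no interval, and cluster 27, with most of the Cre- nuclei, held 21 Tet tcKO nuclei.

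Within clusters, Cacna1a, which was lower in Tet tcKO amacrine nuclei as a whole, stood at 2056 and 1569 CPM in cluster 13, led by Chat, which marks starburst amacrine cells, with a log2 ratio of -0.39 (-0.62 to -0.15). In cluster 23 it stood at 256 CPM from 8 UMIs and 653 CPM from 340 UMIs, with 1.35 (0.36 to 2.58), and in cluster 27 at 1122 and 1122 CPM. Cacna1c in cluster 13 stood at 120 CPM from 14 UMIs and 368 CPM from 95 UMIs, giving a log2 ratio of 1.61 (0.79 to 2.54), while in cluster 24 it was at 556 and 709 CPM with 0.35 (-0.17 to 0.91). Cacna2d3 had 1 UMI in Cre- and 139 in Tet tcKO nuclei of cluster 24, or 16.8 and 296 CPM, and a log2 ratio of 4.13 (1.63 to 9.45). Cacna2d1 was highest in cluster 13, at 766 and 973 CPM, and at 135 and 360 CPM in cluster 24. Cacng8 rested on 1 Cre- UMI in each of clusters 13, 23 and 24.

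**Figure D4:**
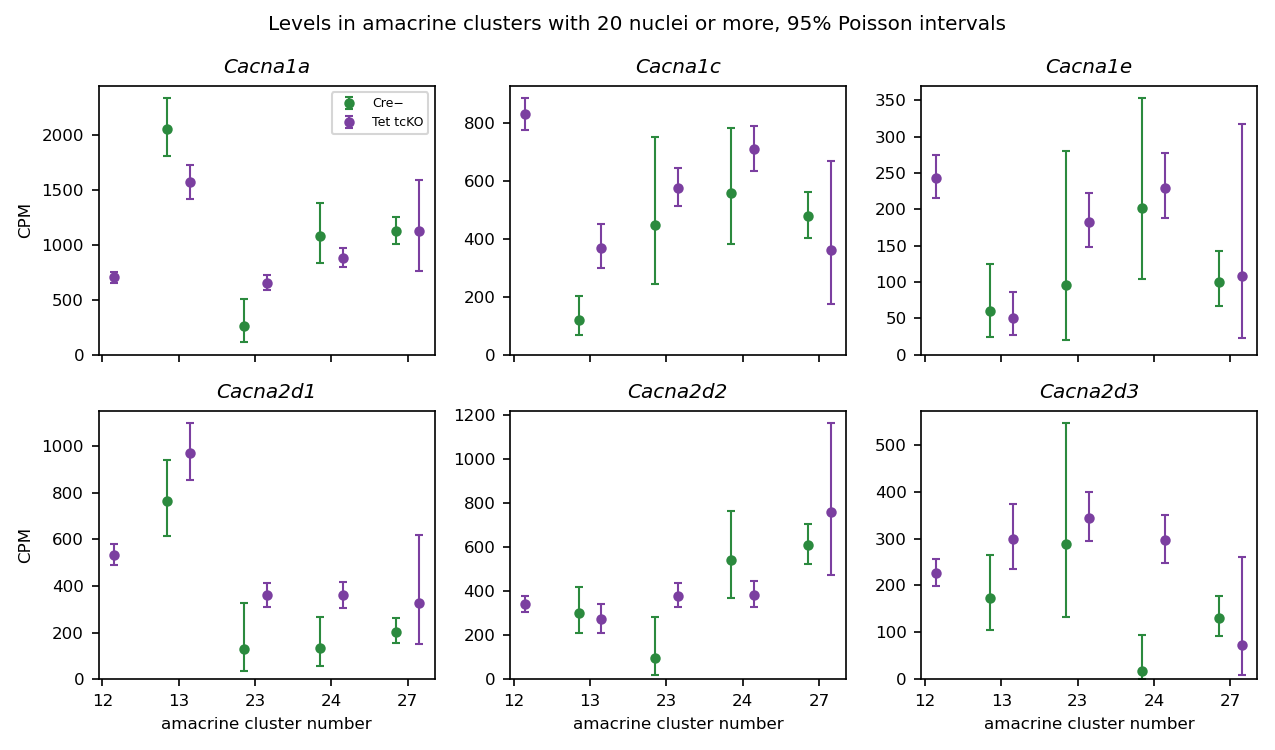
Levels in CPM (vertical axis, starting at 0) of 6 members by amacrine cluster number (horizontal axis) in the Cre- (green) and Tet tcKO (purple) libraries, for clusters with 20 nuclei or more in that library, with bars for 95% Poisson intervals. Cacna1a stands apart between the libraries in cluster 13 (2056 and 1569 CPM) and cluster 23 (256 and 653 CPM), Cacna1c in cluster 13 (120 and 368 CPM) and Cacna2d3 in cluster 24 (16.8 and 296 CPM), while many other pairs overlap.

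In RGCs 1 of 30 members was 2-fold or more apart, while 6.72% of 10262 genes were, with 3.53% higher in Tet tcKO and 3.20% lower. Scn4b stood at 14.6 CPM from 18 UMIs in Cre- and 2.34 CPM from 5 UMIs in Tet tcKO, giving a log2 ratio of -2.64 (-4.43 to -1.16), or -1.05 with each nucleus thinned to 500 UMIs. In cluster 2, which held 111 and 185 nuclei, it had 11 and 3 UMIs, giving a log2 ratio of -2.60 (-5.08 to -0.68). Most members were close. The median was 0.10 against 0.02 for all genes, and 83.3% of members against 71.2% of all genes lay within 0.5 of 0. Scn1a stood at 688 and 591 CPM, giving a log2 ratio of -0.22 (-0.35 to -0.09), and Scn2a at 387 and 375 CPM, with -0.05 (-0.21 to 0.12).

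Scn9a was near the 2-fold line in RGCs, at 76.4 CPM from 94 UMIs and 149 CPM from 317 UMIs, giving a log2 ratio of 0.96 (0.62 to 1.31). It was higher in Tet tcKO in each of the RGC clusters 2, 8 and 31, by 0.71, 1.16 and 0.93 on the log2 scale, and the interval lay above 0 in cluster 2 (0.11 to 1.33). Scn3b stood at 13.0 and 23.9 CPM, with 0.88 (0.04 to 1.79). Scn3a stood at 193 and 267 CPM, with 0.47 (0.25 to 0.69), and Cacna2d1 at 283 and 398 CPM, with 0.49 (0.31 to 0.68). Scn7a stood at 43.9 and 29.5 CPM with -0.57 (-1.12 to -0.02), and Cacnb3 at 55.3 and 39.4 CPM with -0.49 (-0.97 to -0.01). With TMM factors both intervals held 0, and in cluster 2 Scn7a stood at 55.5 and 54.7 CPM.

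RGC clusters were unevenly shared too. Cluster 8 held 394 Cre- and 29 Tet tcKO nuclei, cluster 31 held 58 and 273, and cluster 15 held 4 and 217. With the shared clusters 2, 8 and 31 at their Cre- shares the log2 ratio was 0.99 for Scn9a, -3.05 for Scn4b and 0.47 for Scn3a, but 0.02 for Cacna2d1 and 0.42 for Scn3b. Rod markers stood at 2151 and 943 CPM in RGCs and cone markers at 560 and 1301 CPM, with no gene of either list at 0, and their part was not tested.

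Across photoreceptors, amacrine nuclei and RGCs, 27 members reached 10 CPM in all 3. Of these, 11 were higher in Tet tcKO in all 3, 6 were lower in all 3 and 10 were mixed, and with TMM factors the numbers were 9, 6 and 12. Over the 9561 genes at that level 31.1% were higher and 18.8% lower in all 3. With shared amacrine and RGC clusters at their Cre- shares 5 members were higher, 4 lower and 18 mixed, beside 19.2% and 12.5% of all genes. All 3 intervals lay clear of 0 on 1 side for 4 members and for 9.22% of all genes. Of these, Cacna2d1, Scn3a and Scn9a were higher in Tet tcKO and Cacna1a was lower, but with shared amacrine clusters the amacrine ratio was -0.29 for Scn9a and -0.05 for Scn3a, the opposite direction. With TMM factors the photoreceptor intervals of Cacna2d1 (-0.02 to 0.17) and Scn3a (-0.09 to 0.25) held 0, while those of Scn9a and Cacna1a did not. For Cacna1a the log2 ratios were -0.64 in photoreceptors, -0.57 in amacrine nuclei and -0.31 in RGCs. With shared RGC clusters at their Cre- shares it was 0.24 in RGCs, a value without an interval. Cacna1a stood at 1415 and 1870 CPM in RGC cluster 8, which held 29 Tet tcKO nuclei. It stood at 1238 and 1230 CPM in cluster 2 and at 1167 and 1256 CPM in cluster 31. In cluster 15, with 4 Cre- and 217 Tet tcKO nuclei, Cacna1a stood at 753 CPM (694 to 815) in Tet tcKO. That cluster is not among the shared ones, and its part in the RGC ratio of -0.31 was not tested. The nuclei of the 3 populations came from the same 2 libraries, so they are not independent replicates of a difference.

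Partner genes of the channels were read from a fixed list of anchors, fibroblast growth factor homologous factors, subunits of the sodium leak channel, active zone proteins, calcium sensors and Stac adaptors, of which 31 were in the tables. Over all nuclei 3 of 29 at 10 CPM or more were 2-fold or more apart, beside 5.66% of all genes. Nfasc, a cell adhesion protein of axon initial segments and nodes, stood at 549 and 262 CPM, giving a log2 ratio of -1.06 (-1.12 to -1.01), and in photoreceptors at 578 and 244 CPM, with -1.24 (-1.32 to -1.17). Fgf14, which binds sodium channel tails, stood at 455 and 963 CPM, with 1.08 (1.04 to 1.13), and in amacrine nuclei at 963 and 1980 CPM, with 1.04 (0.91 to 1.17).

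Cabp5, a calcium-binding protein best known from bipolar cells, was higher in Tet tcKO in all 4 populations, at 29.2 and 103 CPM over all nuclei and 31.0 and 133 CPM in photoreceptors. The bipolar list of 14 genes to which it belongs was at 3766 and 2821 CPM in photoreceptors. Of the Stac genes, whose products stabilise L-type channels, in amacrine nuclei Stac2 stood at 201 and 75.6 CPM with a log2 ratio of -1.41 (-1.76 to -1.05), Stac at 8.95 and 35.0 CPM with 1.97 (0.69 to 3.63), and Stac3 at 17.9 and 6.83 CPM with -1.39 (-2.62 to -0.09). With shared clusters these log2 ratios were -0.57 for Stac2, -0.59 for Stac and 0.25 for Stac3, and in amacrine nuclei they were 0.52 for Fgf14 and 0.49 for Cabp5, so that none of the 5 stayed 2-fold apart there and Stac and Stac3 changed sign. Stac2 was also lower in RGCs, at 104 and 48.3 CPM, with -1.11 (-1.50 to -0.72), or -0.67 with shared clusters. Of the partners at 10 CPM or more, 27 of 29 in photoreceptors, 24 of 29 in amacrine nuclei and 26 of 28 in RGCs were less than 2-fold apart, while 9.25%, 12.9% and 6.72% of all genes were 2-fold or more apart.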

How the data were processed

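Nuclei of whole retinas were sequenced with a PIPseq 3′ kit. Per the labels, reads were processed with pipseeker 3.3.0, and the submitters' processing notes name GRCm39. The authors removed ambient RNA with CellBender (cell probability 0.99) and filtered nuclei to between 500 and 10000 transcripts with a mitochondrial share below 20%. The UMI counts they deposited are whole numbers, 1 per gene and nucleus. The deposited cell tables add counts of genes and transcripts, a mitochondrial percent, a size factor that is a ratio to a constant, and the authors' cluster and cell type. The deposited gene table adds a mean signal per genotype. The percent, ratio and signal entered no level. The study's methods name no doublet step, and no doublet caller was run.

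UMIs were summed per library and annotated class and divided by their total, as CPM. Ratios are log2, Tet tcKO over Cre-. Intervals are exact at 95%, Poisson for levels, conditional for ratios and Clopper-Pearson for shares. Where a count was 0, 3 counts took its place as a floor. Ratios were read at 10 CPM or above and counted from 2-fold. With 1 library per genotype no test was made, and the study's model over single nuclei was not repeated. The steps were tested on simulated data. Members and lists were chosen with earlier results of these data known. Some genes of these families are not reported here and enter no count, sum or median. Class levels are given for members with 100 UMIs or more. Ratios are named for members and partners 2-fold or more apart and for the 3 highest and 3 lowest members of a population. Other ratios, and those within clusters, were chosen after their values were seen. Marker lists were read among the 10 leading genes of each cluster, and a cluster failed where another list held more of them than its own. Alternatives were TMM (edgeR 4.0.16), median of ratios, totals without mitochondrial genes, a minimum of 1 CPM or none, nuclei with 1000 UMIs or more, leaving out the 5% of nuclei with the most UMIs, counting each gene once per nucleus, leaving out each gene's highest nucleus, thinning to 500 UMIs, clusters that passed the marker check, and Cre- class shares. Shared clusters at Cre- shares were added after seeing the data. Their ratios have no interval, and some of these clusters held few Tet tcKO nuclei, 29 in RGC cluster 8 and 21 in amacrine cluster 27. Promoter windows were read from GRCm39 with GENCODE vM39. Python 3.11.15, numpy 2.4.6, scipy 1.17.1, pandas 2.3.3 and R 4.3.3 were used.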

Additional observations from a re-analysis of the deposited data

Results flagged for a closer look

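For a pair of members the libraries differed in opposite directions in 2 classes, with both counting intervals clear of 0. Cacna1d, an L-type pore, had a log2 ratio of 0.18 in RGCs, from 548 CPM in the Cre- and 622 CPM in the Tet tcKO library, and -0.45 in pooled photoreceptors, from 399 and 293 CPM. Cacna2d3, the alpha2delta gene highest in horizontal cells, had a log2 ratio of 0.79 in amacrine nuclei, from 158 and 272 CPM, and -0.25 in RGCs, from 247 and 208 CPM. With shared clusters at their Cre- shares the values for Cacna2d3 were 0.30 and 0.08, so the RGC value changed sign. The RGC value for Cacna1d was 0.07 with shared clusters and -0.08 with each gene counted once per nucleus, so its opposite direction did not hold there. The difference between classes was not tested, since each genotype is 1 library.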

How the results depend on the processing

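No paired analysis was possible because each genotype is 1 library. Of 132 counts and medians of lists under alternatives, 109 stayed within their limits and 23 moved. Of 264 single-gene log2 ratios, which covered 24 genes by population, 224 moved by less than counting error, 40 moved more and 264 kept their sign. Outside these, the ratios that changed sign with shared clusters included Cacna2d2 in amacrine nuclei at 0.22, Scn9a and Scn3a there at -0.29 and -0.05, and Cacna1a and Cacna2d3 in RGCs at 0.24 and 0.08, and Cacna1d in RGCs was -0.08 with each gene counted once per nucleus. Of 156 shares of nuclei with a UMI, 140 moved with depth. Over all nuclei 3 members were 2-fold or more apart at a minimum of 1 CPM or none, the added being Scn4a and Scn4b, and 2 thinned to 500 UMIs. Partners numbered 5 at 1 CPM or none and 1 with each gene counted once per nucleus. In photoreceptors the member median was -0.19 with TMM, -0.17 with median of ratios and 0.13 thinned to 500 UMIs, and at 1 CPM or none 3 members and 4 partners were 2-fold or more apart. In amacrine nuclei the count of members was 0 in nuclei with 1000 UMIs or more, 3 without the 5% of nuclei with the most UMIs, 2 without each gene's highest nucleus, 3 thinned to 500 UMIs and 3 with shared clusters, where 1 partner was that far apart. Cacng8 had a log2 ratio of 0.97 in nuclei with 1000 UMIs or more and was not among the 3 with shared clusters. In RGCs the count was 2 in nuclei with 1000 UMIs or more, where Scn9a joined, 2 without each gene's highest nucleus and 6 thinned to 500 UMIs, and 1 partner was that far apart when each gene was counted once per nucleus. The cause was not tested. The share of all genes 2-fold or more apart was computed only for the main setting and for photoreceptor clusters that passed the marker check. The counts under the other alternatives have no such share beside them and are not read against other genes. Scn4b in RGCs rests on 23 UMIs, with a log2 ratio of -1.05 when thinned, and Cacng8 in Cre- amacrine nuclei on 10 UMIs.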
